A study of Mus musculus with 18 samples.

Results

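The enzymes and carriers of de novo lipogenesis were followed as 10 genes, chosen by name with earlier results of these data known, among the 55487 genes of a raw-count table. They were Slc25a1, Acly, Acss2, Me1, Acaca, Mid1ip1, Fasn, Tecr, Gpam and Lpin1, and 10 of 10 had enough counts to be among the 15381 genes tested. The table came from RNA-seq of mouse embryonic fibroblasts (MEFs), an established wild-type line, in 18 libraries that formed 6 groups of 3. MEFs were kept in Scm, a high-glucose medium with a batch of fetal bovine serum that leaves them sensitive to ferroptosis, or in Rcm, the same medium with a batch that makes them resistant. Ferroptosis is a form of cell death driven by iron and lipid peroxidation. The other 4 groups were exchanges: S-Rcm MEFs were grown in Scm and then given Rcm, R-Scm MEFs were grown in Rcm and then given Scm, and each was taken 12 h and 24 h after the change. No group carried a gene deletion or a drug, and the media differed in the whole serum, so that no single serum component was varied in these libraries. None of the 6 groups was an exchange into the same medium, so that a new medium and the change itself cannot be told apart.

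De novo lipogenesis builds fatty acids from carbon that leaves the mitochondrion as citrate. Citrate is split in the cytosol to acetyl-CoA, which is carboxylated to malonyl-CoA and polymerised by fatty acid synthase with electrons from NADPH, and the fatty acids are then elongated or joined to glycerol phosphate. Many genes of this route are known targets of sterol regulatory element binding proteins (SREBPs), and the route is classically studied in liver and adipose tissue.

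Values are CPM (read counts relative to library size) after TMM scaling, and differences are log2 fold changes (log2FC) with their standard error (SE) from 1 edgeR quasi-likelihood model of all libraries. Levels of cell type markers are the exception: they are CPM on the total counts of a library, without TMM scaling. A gene was called when its absolute log2FC was above 0.58 and its Benjamini-Hochberg adjusted p over all genes tested was under 0.05. The labels do not say whether the 3 libraries of a group came from separate cultures. The p-values set a difference of group means against a spread between libraries that was estimated over all 6 groups. That spread need not be a spread between cultures. In bulk RNA, fewer cells that express a gene and less RNA per cell cannot be told apart. Libraries held between 14534906 and 20313715 counts, and each pair of replicates differed by more than counting noise. The fibroblast identity was checked with 8 marker genes, of which 8 were detected, with a summed level of 6429 to 10256 CPM. Among 6 adipocyte markers, Adipoq, Lep, Retn and Cidec were at 0 counts in every library and Plin1 had at most 2 counts. Fabp4 was detected in every library, with 4 to 37 counts and at most 2.46 CPM. The 4 leukocyte markers summed to 2.02 to 5.03 CPM. The 4 hepatocyte markers summed to at most 0.25 CPM, the 4 endothelial markers to at most 3.21 CPM and the 4 epithelial markers to at most 1.45 CPM.

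In GRCm38 (GENCODE M21), the genes of acetyl-CoA supply lie at chr16:17925223-17928219 (Slc25a1), chr11:100476353-100528000 (Acly) and chr2:155517948-155585724 (Acss2), and that of NADPH supply at chr9:86581371-86695953 (Me1). Those of malonyl-CoA and chain synthesis lie at chr11:84129672-84401651 (Acaca), chrX:10715013-10719690 (Mid1ip1), chr11:120805846-120824547 (Fasn) and chr8:83571698-83607971 (Tecr), and those of glycerolipid entry at chr19:55067268-55127238 (Gpam) and chr12:16535669-16610966 (Lpin1). Acss2, Acaca and Mid1ip1 are on the plus strand and the other 7 on the minus strand. The 250 bases before the start are shown for 4 genes whose RNA moved down and for the 1 that moved up when Rcm was replaced by Scm, so that the letters can be set beside the values. Capitals mark a CCAAT box (CCAAT, or ATTGG on the other strand), a GC box (GGGCGG or CCGCCC) or an E-box (CACGTG), and where boxes overlap the capitals run together. The windows, from the build GRCm38.p6, are chr16:17928220-17928469 on the minus strand for Slc25a1, chr11:100528001-100528250 on the minus strand for Acly, chr11:120824548-120824797 on the minus strand for Fasn, chr12:16610967-16611216 on the minus strand for Lpin1 and chrX:10717115-10717364 on the plus strand for Mid1ip1. Each sequence reads 5′ to 3′ towards the gene.
Slc25a1: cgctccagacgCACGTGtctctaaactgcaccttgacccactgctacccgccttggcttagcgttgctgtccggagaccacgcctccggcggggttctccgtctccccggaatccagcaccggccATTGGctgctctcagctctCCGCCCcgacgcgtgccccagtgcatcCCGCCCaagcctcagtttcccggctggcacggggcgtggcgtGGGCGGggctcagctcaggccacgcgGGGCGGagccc
Acly: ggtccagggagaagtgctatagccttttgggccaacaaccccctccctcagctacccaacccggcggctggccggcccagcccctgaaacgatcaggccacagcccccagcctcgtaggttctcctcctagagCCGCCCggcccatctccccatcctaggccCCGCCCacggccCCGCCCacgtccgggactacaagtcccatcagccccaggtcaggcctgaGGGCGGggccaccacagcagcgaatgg
Fasn: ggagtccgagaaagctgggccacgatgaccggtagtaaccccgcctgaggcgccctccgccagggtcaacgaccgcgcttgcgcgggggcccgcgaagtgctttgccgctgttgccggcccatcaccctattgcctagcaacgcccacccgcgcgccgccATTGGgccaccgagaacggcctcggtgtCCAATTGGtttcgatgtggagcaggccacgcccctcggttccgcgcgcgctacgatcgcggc
Lpin1: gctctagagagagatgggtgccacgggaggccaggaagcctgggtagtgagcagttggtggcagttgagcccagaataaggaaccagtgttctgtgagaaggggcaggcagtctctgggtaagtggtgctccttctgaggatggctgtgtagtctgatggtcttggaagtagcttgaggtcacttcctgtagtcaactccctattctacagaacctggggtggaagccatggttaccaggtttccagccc
Mid1ip1: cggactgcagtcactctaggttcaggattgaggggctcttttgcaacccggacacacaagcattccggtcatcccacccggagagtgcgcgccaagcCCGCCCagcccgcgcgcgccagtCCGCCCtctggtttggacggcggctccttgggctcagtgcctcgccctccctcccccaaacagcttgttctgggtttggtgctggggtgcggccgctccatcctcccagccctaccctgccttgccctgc

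The Slc25a1 window held 1 E-box 239 bases before the start, 1 CCAAT box and 4 GC boxes. Acly had 4 GC boxes, and Fasn had 3 CCAAT boxes, whose first letters lay 90, 62 and 59 bases before the start and of which the last pair overlap. Mid1ip1 had 2 GC boxes, and Lpin1 had no box of any of these kinds. Over 12 windows of the 10 genes (Me1 and Gpam have 2 starts each), a CCAAT box occurred in 6 windows against 33.8% of 32851 RefSeq windows, a GC box in 7 against 32.7%, and an E-box in 1 against 6.02%. The classical sterol response element (TCACNCCAC or GTGGNGTGA) was found in 0 of the 12 windows and in 1.05% of all windows. These letters are a description of 250 bases before an annotated start, and the GENCODE M21 gene models can begin earlier. Of the 12 windows, 5 lie wholly inside the model of their own gene (Acaca, Tecr, Mid1ip1 and 1 each of Me1 and Gpam), and 2 in part (Acss2 and the other of Me1). The Mid1ip1 window shown begins 2102 bases past the start of its model, whereas those shown for Slc25a1, Acly, Fasn and Lpin1 end where the model begins.

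The lipogenesis genes differed widely in level. Per kilobase of exon, mean levels in Scm ran from 1.25 CPM for Acss2, which makes acetyl-CoA from acetate, and 2.62 CPM for Acaca to 69.6 CPM for Fasn and 80.0 CPM for Acly. The length was that of all annotated exons of a gene merged, 10163 bases for Acss2 and 17074 for Acaca, which need not be the length of the RNA present. Reads of Acaca may also have been counted on Gm5182, a near-identical pseudogene described below. Gm5182 had a mean of 53.9 CPM in Scm, where Acaca had 44.8 CPM. The ratio of the highest to the lowest group mean was 2.63 for Lpin1, 2.35 for Mid1ip1, 1.89 for Slc25a1, 1.81 for Acly, 1.75 for Fasn and 1.74 for Acss2. It was 1.55 for Acaca, 1.52 for Tecr, 1.32 for Me1 and 1.14 for Gpam. R-Scm 12 h had the lowest mean of the 6 groups for 7 of the 10 genes: Slc25a1, Acly, Acss2, Acaca, Fasn, Tecr and Lpin1. Rcm had the highest mean for 5 of them, Slc25a1, Acly, Acss2, Acaca and Lpin1.

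**Figure D1:**
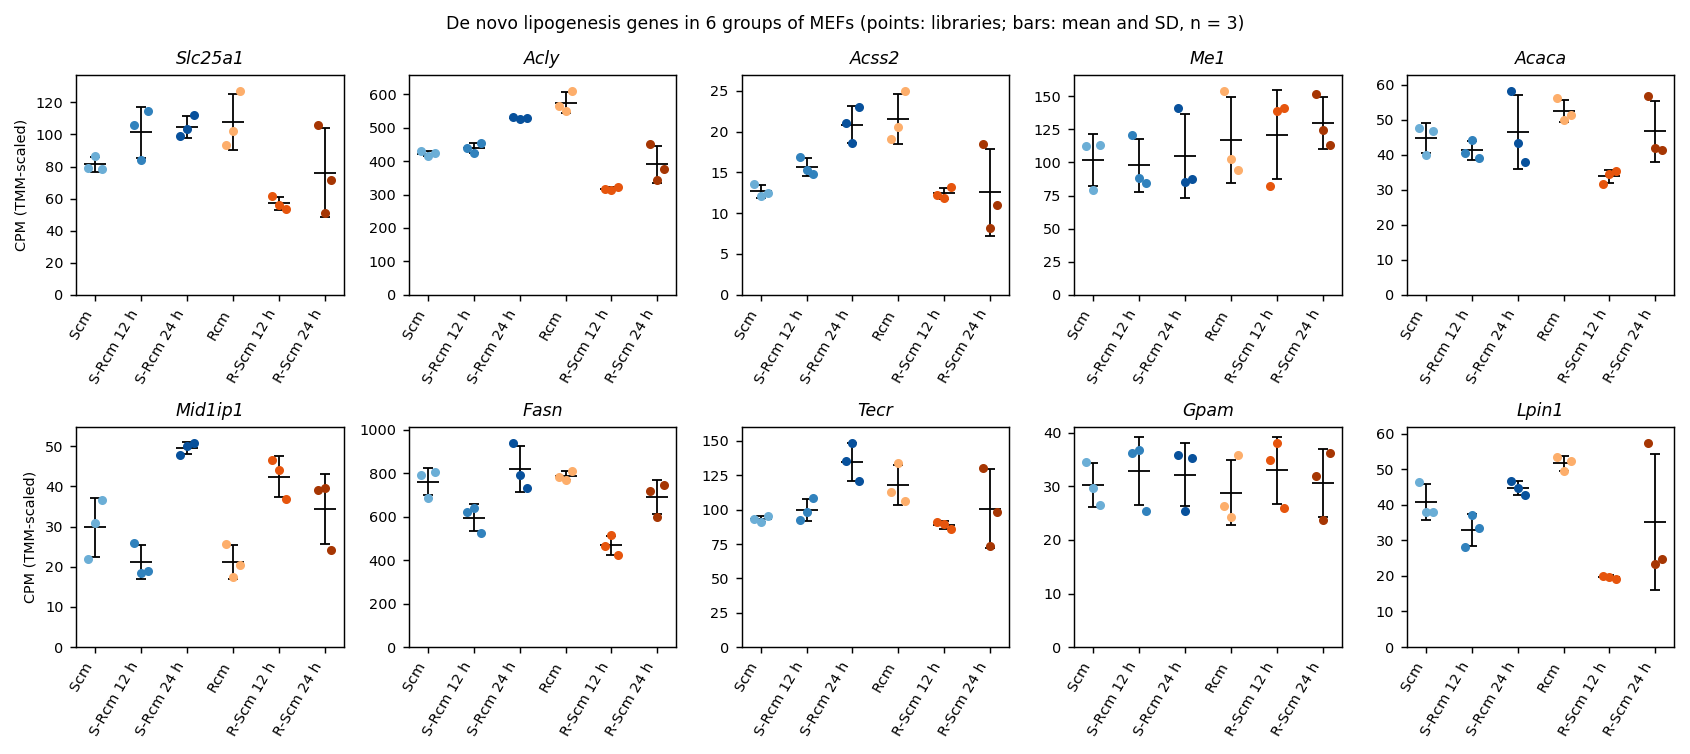
Each panel plots 1 gene, with the CPM after TMM scaling on a linear axis from 0 and the 6 groups along the bottom; points are libraries and bars the mean and SD of 3. Acly and Lpin1 dropped from Rcm to R-Scm 12 h with no overlap of libraries, Mid1ip1 moved the other way, and Gpam stayed between group means of 28.8 and 33.0 CPM.

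Replacing Rcm by Scm for 12 h was followed by the clearest movement of the route. Of the 10 genes, 7 were called against Rcm: 6 were lower (Lpin1, Slc25a1, Acly, Acss2, Fasn and Acaca) and 1 was higher (Mid1ip1). Over all genes tested, 2.74% were called in this comparison, 1.22% lower and 1.51% higher. The median log2FC of the 10 genes was -0.69, against -0.0077 for all genes. For 8 of the 10 genes no R-Scm 12 h library lay within the range of the Rcm libraries or the reverse, against 23.4% of all genes.

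Slc25a1, the mitochondrial carrier that exports citrate, had 93.3, 102.3 and 127 CPM in the Rcm libraries and 61.7, 55.9 and 53.2 CPM in the R-Scm 12 h libraries. The groups did not overlap, and the gene fell by 0.92 on the log2 scale (SE 0.19, edgeR adjusted p = 0.0108). Acly, ATP citrate lyase, had 565, 550.3 and 611 CPM in Rcm and 315, 314 and 322 CPM in R-Scm 12 h. The groups did not overlap, with means of 575 ± 31.5 and 317 ± 4.58 CPM (SD, n = 3), and Acly fell by 0.86 (SE 0.09, edgeR adjusted p = 3.43e-05), which placed it 9th by p among all genes tested. Acss2, acetyl-CoA synthetase, had 19.1, 20.6 and 25.0 CPM in Rcm and 12.3, 11.8 and 13.2 CPM in R-Scm 12 h, again with no overlap. It fell by 0.80 (SE 0.21, edgeR adjusted p = 0.0378), and was not called once any 1 of the 6 libraries was left out, when the adjusted p ran from 0.0601 to 0.142. Exons of Acss2 share 395 bases with Gss, a gene on the opposite strand with 712 to 1316 counts per library, and the use of strand in counting is not given in the sources used here.

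Acaca, acetyl-CoA carboxylase 1, makes malonyl-CoA. It had 56.1, 49.97 and 51.3 CPM in Rcm and 31.7, 34.4 and 35.3 CPM in R-Scm 12 h. No library overlapped, and Acaca fell by 0.63 on the log2 scale (SE 0.15, edgeR adjusted p = 0.0199), close to the limit of 0.58. Its transcript is 99.2% identical over 6118 aligned bases to Gm5182, a processed pseudogene at chr12:10152142-10158233 (GRCm38, plus strand), and every library had more counts on Gm5182 than on Acaca, by a factor of 1.09 to 1.31. Gm5182 fell by 0.66 (SE 0.15, edgeR adjusted p = 0.0213), and the sum of both genes fell by 0.65 (adjusted p = 0.0167). Mid1ip1, a small protein known to bind acetyl-CoA carboxylase and promote its polymerisation, went against the other called genes. It had 25.6, 17.4 and 20.4 CPM in Rcm and 46.5, 44.0 and 36.8 CPM in R-Scm 12 h, and was 2.01-fold higher (log2FC 1.005, SE 0.21, edgeR adjusted p = 0.0101).

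Fasn, fatty acid synthase, had 784, 772 and 811 CPM in Rcm and 467, 514 and 426 CPM in R-Scm 12 h. It fell by 0.75 (SE 0.11, edgeR adjusted p = 0.00122). Lpin1, lipin 1, which turns phosphatidate into diacylglycerol, had the largest difference of the 10. Its libraries had 53.3, 49.4 and 52.2 CPM in Rcm and 20.1, 19.8 and 19.1 CPM in R-Scm 12 h, and it fell by 1.39 (SE 0.24, edgeR adjusted p = 0.00344). The spread within either group was small beside that gap.

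The other 3 genes were not called. Tecr, the reductase of the last step of very long chain elongation, had 113, 134 and 107 CPM in Rcm and 91.3, 89.4 and 85.8 CPM in R-Scm 12 h, with no overlap, a log2FC of -0.41 and an adjusted p of 0.15 (edgeR). Me1, the cytosolic malic enzyme that yields NADPH, ranged from 94.6 to 154 CPM in Rcm and from 82.0 to 142 CPM in R-Scm 12 h (log2FC 0.05, SE 0.25). Me1 has a copy, Gm7049, that is 98.4% identical over 1716 bases and had 395 to 758 counts per library. Gpam, the mitochondrial glycerol-3-phosphate acyltransferase, had a log2FC of 0.19 (SE 0.21), and its groups overlapped.

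**Figure D2:**
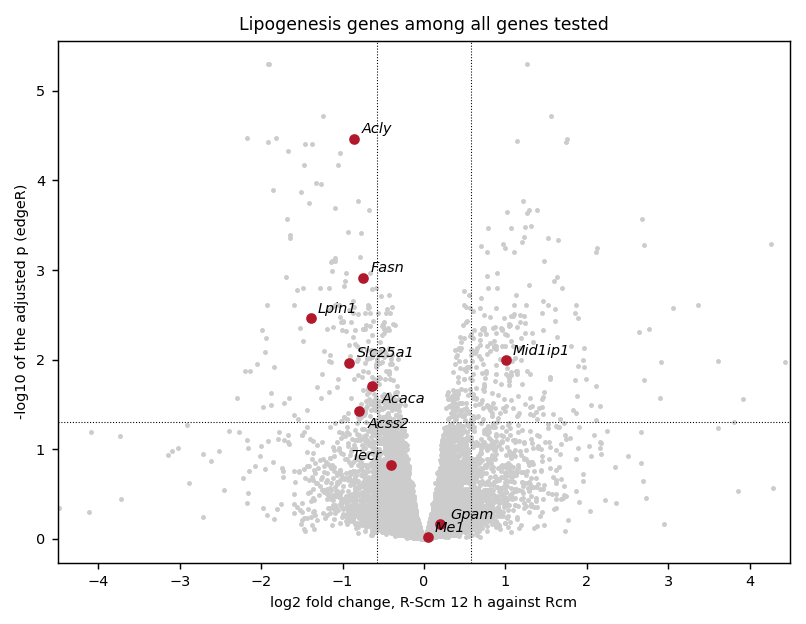
Each grey point is 1 of the genes tested in R-Scm 12 h against Rcm, with the log2FC on the x axis and -log10 of the edgeR adjusted p on the y axis; dotted lines mark the thresholds, and 12 genes lie beyond an absolute log2FC of 4.5, outside the plot. The 10 red points are the lipogenesis genes, of which 6 sit in the upper left field, Mid1ip1 in the upper right and Tecr, Gpam and Me1 below the line.

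Leaving out 1 library at a time kept the direction of these 7 genes but not every call. Acly, Fasn and Lpin1 were called in 6 of 6 such fits, Mid1ip1 in 5, Slc25a1 in 4, Acaca in 1 and Acss2 in 0. The count of called genes was 4 without Rcm replicate 3 or without R-Scm 12 h replicate 3. Those fits called 321 of 15703 and 275 of 15659 genes tested. The leukocyte markers summed to 3.57 to 5.03 CPM in R-Scm 12 h and 2.27 to 3.39 CPM in Rcm, mostly from Cd68, with Cd3e and Adgre1 at 0. The fibroblast sum was 6803 to 7008 CPM in R-Scm 12 h and 8832 to 9515 CPM in Rcm. The part of either difference in the results was not tested.

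Set against steady Scm, the medium they had entered, the R-Scm 12 h MEFs had 2 of the 10 genes called, both lower, where 4.4% of all genes were called and 1.29% were called lower. Fasn had 792, 689 and 804 CPM in Scm, all above the R-Scm 12 h libraries, and was lower by a log2FC of -0.70 (SE 0.11, edgeR adjusted p = 0.00142). Lpin1 had 46.5, 37.9 and 37.9 CPM in Scm and was lower by a log2FC of -1.05 (SE 0.24, edgeR adjusted p = 0.0148). Both genes were thus below the level of either steady medium at 12 h, although the Lpin1 call was lost without Scm replicate 1 (adjusted p = 0.069) or R-Scm 12 h replicate 3 (0.0684). Acly passed the adjusted p of 0.0076 in the same comparison but its log2FC of -0.41 was under the limit. Acss2 had nearly the same mean in both groups, 12.4 ± 0.69 CPM in R-Scm 12 h and 12.7 ± 0.794 CPM in Scm (SD, n = 3). The comparison shares the R-Scm 12 h libraries with the one above. The leukocyte sum of 3.57 to 5.03 CPM in R-Scm 12 h was above the 2.34 to 3.22 CPM of Scm, and the fibroblast sum of 6803 to 7008 CPM was below the 7195 to 7284 CPM of Scm. The part of these markers in the result was not tested.

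At 24 h after the same exchange, 0 of the 10 genes were called against Rcm, where 0.377% of all genes were called (edgeR). At an unadjusted p under 0.05 there were 5, but the share of all genes at that limit was not computed. This count therefore has no background beside it. DESeq2 on all libraries called 1 (Acss2) and DESeq2 on these groups alone called 0. Acly came nearest in the edgeR fit, with 453, 344 and 376 CPM in the R-Scm 24 h libraries, all below the Rcm libraries, a log2FC of -0.56 (SE 0.09) and an adjusted p of 0.00803. Its difference was just under the fold limit. The count depended on 1 library, R-Scm 24 h replicate 1, which had the highest value of its group for 7 of the 10 genes.

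For Lpin1 that library had 57.3 CPM, above all Rcm libraries, while the other two had 23.4 and 24.8 CPM, near the R-Scm 12 h level. Slc25a1 had 106 CPM there, within the Rcm range, and 50.9 and 71.8 CPM in the others. Acss2 had 18.5 CPM against 8.14 and 11.1 CPM. Without R-Scm 24 h replicate 1, 4 of the 10 genes were called against Rcm and all were lower, against 3.19% of all genes. Acly then had a log2FC of -0.68 (edgeR adjusted p = 7.8e-05), Lpin1 of -1.10 (0.000102), Acss2 of -1.16 (0.000509) and Slc25a1 of -0.81 (0.00905). Without Rcm replicate 2 Acly alone was called, with a log2FC of -0.59 (edgeR adjusted p = 0.0329), where 27 of 15657 genes tested were called. The fibroblast sum was 6429 to 10256 CPM in R-Scm 24 h and 8832 to 9515 CPM in Rcm, and its part in the result was not tested.

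**Figure D3:**
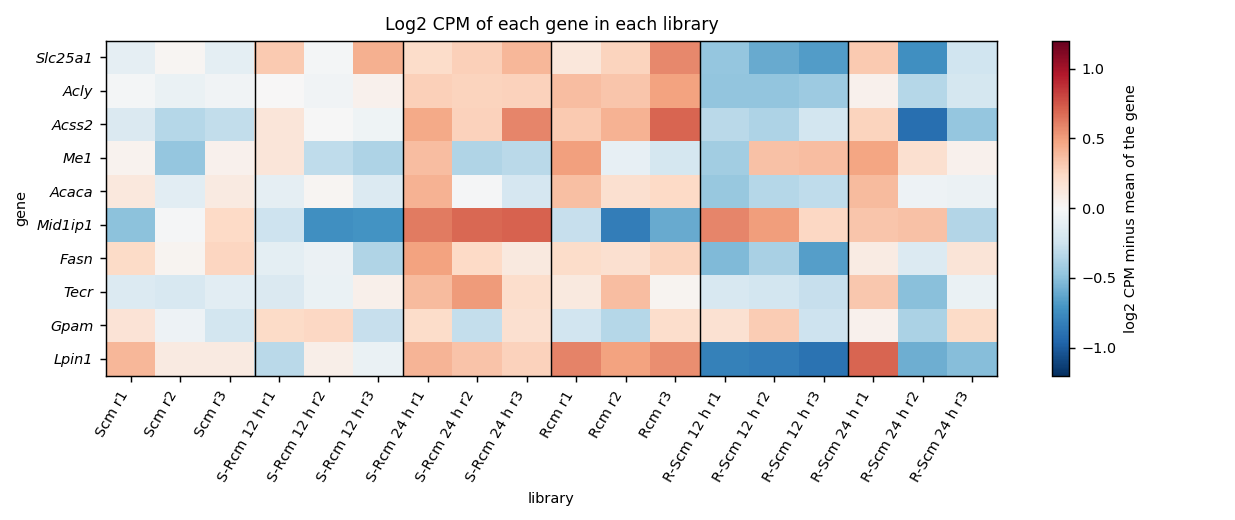
Rows are the 10 genes and columns the 18 libraries in groups of 3 (r1 to r3 are replicates), and the colour gives log2 CPM minus the mean of the gene over all libraries, red above and blue below it. R-Scm 12 h is blue for 7 genes, Mid1ip1 is red there, and R-Scm 24 h r1 stands apart from r2 and r3 for Lpin1, Slc25a1 and Acss2.

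Tested directly, R-Scm 24 h against R-Scm 12 h gave 0 called genes among the 10, against 0.774% of all genes (edgeR). At an unadjusted p under 0.05 there were 5, without a share of all genes at that limit. DESeq2 on all libraries called Lpin1. Fasn had 721, 601 and 748 CPM at 24 h, all above the R-Scm 12 h libraries, and passed the adjusted p of 0.0235 with a log2FC of 0.56 (SE 0.11) that was just under the fold limit. Fasn was called when R-Scm 12 h replicate 2 (log2FC 0.63) or R-Scm 24 h replicate 2 (0.65) was left out. Lpin1 had a log2FC of 0.84 (SE 0.24, edgeR adjusted p = 0.123), a value that became 0.29 once R-Scm 24 h replicate 1 was left out. It became 1.06 once replicate 2 of the same group was left out, and Lpin1 was then called, as were 0.606% of all genes. The leukocyte markers summed to 2.61 to 3.28 CPM in R-Scm 24 h and 3.57 to 5.03 CPM in R-Scm 12 h, and their part in the result was not tested.

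Between the steady media, 0 of the 10 genes were called in Rcm against Scm, where 2.3% of all genes were called (edgeR). At an unadjusted p under 0.05 there were 4, without a share of all genes at that limit. DESeq2 called 1, Acss2. For 6 of the 10, every Rcm library was above every Scm library, against 12.8% of all genes, and the median log2FC of the 10 was 0.28 against 0.012 for all genes. Acly had 430, 414 and 423 CPM in Scm, below every Rcm library, and passed the adjusted p of 0.00753 with a log2FC of 0.45 (SE 0.09) that was under the fold limit. Acss2 had 13.6, 12.1 and 12.4 CPM in Scm, also below every Rcm library, with a log2FC of 0.76 (SE 0.21) and an adjusted p of 0.0625. Fasn averaged 762 ± 63.4 CPM in the Scm libraries and 789 ± 20.1 CPM in the Rcm libraries (SD, n = 3), a log2FC of 0.05 (SE 0.11). Mid1ip1 had a log2FC of -0.49 (SE 0.21, edgeR adjusted p = 0.263), and its groups overlapped. The adipocyte markers summed to 0.214 to 0.619 CPM in Scm and 1.01 to 2.46 CPM in Rcm, from Fabp4 and at most 2 counts of Plin1, and the fibroblast sum was 7195 to 7284 CPM in Scm and 8832 to 9515 CPM in Rcm. Their part in the result was not tested.

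Moving MEFs from Scm to Rcm gave a narrower range at 12 h. The log2FC of the 10 genes against Scm ran from -0.49 to 0.32, where those of R-Scm 12 h against Rcm ran from -1.39 to 1.005. At 12 h, 0 of the 10 genes were called against Scm, against 0.858% of all genes, and 0 with DESeq2. At an unadjusted p under 0.05 there were 2, without a share of all genes at that limit. Slc25a1 had 106, 83.8 and 114 CPM in S-Rcm 12 h and 78.8, 86.5 and 78.5 CPM in Scm, an overlap of 1 pair of libraries. Fasn had 620, 641 and 526 CPM in S-Rcm 12 h, all below the Scm libraries, with a log2FC of -0.35 (SE 0.11, edgeR adjusted p = 0.144). The genes had 5 positive and 5 negative log2FC, and their median was 0.00011.

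At 24 h in Rcm, 0 of the 10 genes were called against Scm, against 0.338% of all genes (edgeR). At an unadjusted p under 0.05 there were 4, without a share of all genes at that limit. DESeq2 called 1 on all libraries (Mid1ip1) and 2 on these groups alone (Acss2 and Mid1ip1). All 10 fitted log2FC were positive, from 0.04 for Me1 to 0.74 for Mid1ip1, and for Acaca and Me1 the sign changed when single libraries were left out. Acly had 531, 527 and 528 CPM, all above the Scm and S-Rcm 12 h libraries and below the Rcm libraries. Acss2 had 21.02, 18.5 and 23.0 CPM, above every Scm library, with a log2FC of 0.72 (SE 0.21, edgeR adjusted p = 0.209). Tecr had 135, 148 and 121 CPM against 93.2, 91.4 and 95.5 CPM in Scm, with a log2FC of 0.53 (SE 0.15, adjusted p = 0.192). The fibroblast sum was 7894 to 9841 CPM in S-Rcm 24 h and 7195 to 7284 CPM in Scm. The adipocyte sum was 1.01 to 1.31 CPM in S-Rcm 24 h and 0.214 to 0.619 CPM in Scm. The part of these markers in the result was not tested.

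Between the times of this exchange 1 gene was called, Mid1ip1. It had 26.0, 18.5 and 18.8 CPM in S-Rcm 12 h and 47.9, 50.1 and 50.7 CPM in S-Rcm 24 h, with no overlap, and was 2.34-fold higher at 24 h (log2FC 1.23, SE 0.21, edgeR adjusted p = 0.0215). Over all genes, 0.156% were called in that comparison and 0.065% were called higher, and DESeq2 called Mid1ip1 alone among the 10. For 6 of the 10 genes every S-Rcm 24 h library was above every S-Rcm 12 h library, against 8.75% of all genes. At an unadjusted p under 0.05 there were 4 of the 10, without a share of all genes at that limit. Fasn had 939, 794 and 733 CPM in S-Rcm 24 h, above the 620, 641 and 526 CPM of S-Rcm 12 h, with a log2FC of 0.46 (SE 0.11, edgeR adjusted p = 0.122). Its DESeq2 adjusted p was 0.0227 on all libraries and 0.0474 on these groups alone, with the log2FC under the fold limit. Acly had a log2FC of 0.27 (SE 0.09, edgeR adjusted p = 0.266) and Tecr of 0.44 (SE 0.15, 0.327), each with no overlap, as had Acss2 and Lpin1. The fibroblast sum was 6850 to 7847 CPM in S-Rcm 12 h and 7894 to 9841 CPM in S-Rcm 24 h, and its part in the result was not tested.

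Against steady Rcm, S-Rcm 24 h MEFs also had 1 of the 10 called, again Mid1ip1 with a log2FC of 1.23 (SE 0.21, edgeR adjusted p = 0.0239), where 0.221% of all genes were called and 0.065% were called higher. The comparisons with S-Rcm 12 h and with Rcm share the S-Rcm 24 h libraries. With fewer libraries the direction stayed, but the first call was lost in 5 of 6 fits that left out 1 library (adjusted p up to 0.141) and the second in 4 of 6 (up to 0.148). In the order of group means Mid1ip1 was lowest in S-Rcm 12 h (21.1 ± 4.23 CPM) and Rcm (21.1 ± 4.15 CPM) and highest in S-Rcm 24 h (49.6 ± 1.499 CPM, SD, n = 3), and among neighbours in that order only S-Rcm 24 h and R-Scm 12 h did not overlap.

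**Figure D4:**
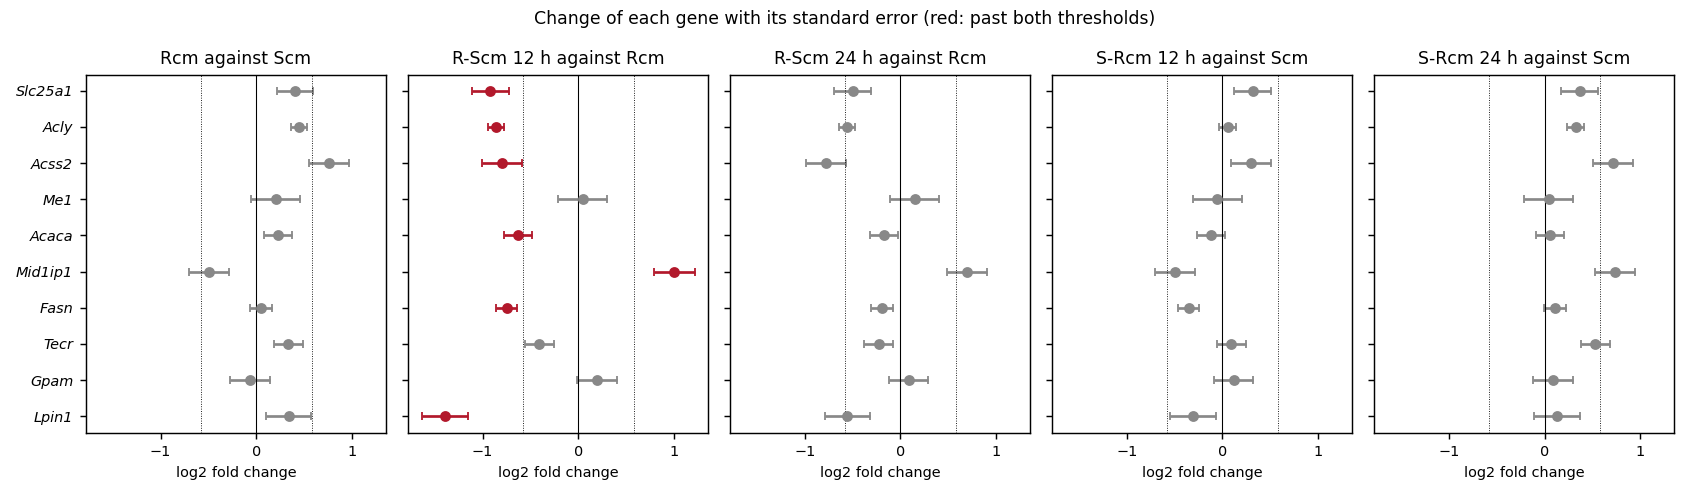
The 5 panels plot the log2FC of each gene with its SE in 5 comparisons, red where the gene was called and grey elsewhere; dotted lines mark a log2FC of -0.58 and 0.58. Red points appear in R-Scm 12 h against Rcm alone, 6 to the left and Mid1ip1 to the right.

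Within groups, some of the genes also varied together from library to library. After the group means were subtracted, Pearson's r over the 18 libraries was 0.91 for Acly and Acss2, 0.89 for Acly and Slc25a1, 0.84 for Acss2 and Slc25a1, and 0.82 for Acly and Lpin1. It was 0.24 for Acly and Fasn, and 0.06 for Acly and Mid1ip1. These values describe libraries that share groups, handling and scaling, and they leaned on R-Scm 24 h, a dependence looked for after seeing the data. Without R-Scm 24 h replicate 1, over 17 libraries, r was 0.70 for Acly and Acss2, 0.75 for Acly and Slc25a1, 0.61 for Acss2 and Slc25a1, and 0.12 for Acly and Lpin1. Without the 3 libraries of R-Scm 24 h, over 15, these were 0.56, 0.64, 0.41 and 0.045 in the same order.

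Genes around the 10 were read from lists of the same pathway. Of 8 tested genes of citrate and acetyl-CoA supply, 0 were called in any of the 9 comparisons, and the same held for 11 genes of malonyl-CoA and fatty acid synthesis control, among them Acacb, and for 12 genes of glycerolipid synthesis beyond entry (edgeR). At an unadjusted p under 0.05 there were at most 3, 1 and 4 of these genes in a comparison, and DESeq2 was not run on the lists. The share of all genes at that unadjusted limit was not computed, so these counts have no background beside them. Among 9 elongation partners of Tecr, Hacd4 (log2FC 0.85, SE 0.19, edgeR adjusted p = 0.023) and Acsl3 (0.66, SE 0.16, 0.0321) were higher in Rcm than in Scm. In R-Scm 12 h against Rcm, Acsl3, which activates long-chain fatty acids, was lower (log2FC -0.89, SE 0.16, edgeR adjusted p = 0.00384) and Hacd1, a dehydratase of elongation, was higher (0.60, SE 0.13, 0.0145). In that comparison the median log2FC was -0.08 for citrate supply, -0.0022 for malonyl-CoA control, 0.02 for elongation, 0.09 for glycerolipid synthesis and -0.23 for NADPH supply.

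Among 9 tested identifiers of NADPH supply, both called were listings of Nnt, the mitochondrial transhydrogenase. The identifier ENSMUSG00000116207 averaged 72.4 ± 9.58 CPM in Scm libraries and 117 ± 1.49 CPM in Rcm libraries (SD, n = 3), and ENSMUSG00000025453 41.9 ± 5.08 and 5.55 ± 0.650 CPM. The listings moved in opposite directions, with log2FC of 0.69 and -2.92 (edgeR adjusted p = 0.0279 and 0.0206), and how reads were divided between them is not given in the sources used here. ENSMUSG00000025453 did not follow the medium: it averaged 4.72 CPM in R-Scm 12 h and 6.16 CPM in R-Scm 24 h. In R-Scm 12 h it was called lower than in Scm (log2FC -3.15, edgeR adjusted p = 0.00788). In S-Rcm 12 h it averaged 20.1 ± 23.5 CPM (SD, n = 3), a wide spread between libraries. The cause was not tested. G6pdx, Pgd and Idh1, the classical cytosolic sources of NADPH beside Me1, were not called in any comparison. In R-Scm 12 h against Rcm, 0 of the 9 identifiers were called, although their log2FC ran from -0.90 to 0.45. At an unadjusted p under 0.05 there were 4 of them, without a share of all genes at that limit.

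Of 12 tested transcription factors of lipogenesis, Srebf2 was the 1 called. Srebf2, best known for driving cholesterol synthesis, averaged 499 ± 23.3 CPM in Rcm and 285 ± 38.6 CPM in R-Scm 12 h (SD, n = 3), and fell by 0.81 on the log2 scale (SE 0.14, edgeR adjusted p = 0.00307). It was also lower in R-Scm 12 h than in Scm, where it averaged 451 ± 16.7 CPM (log2FC -0.66, SE 0.14, edgeR adjusted p = 0.00854). It was higher at 24 h than at 12 h of that exchange (log2FC 0.62, SE 0.14, edgeR adjusted p = 0.0419). Srebf1, which encodes the SREBP best known for fatty acid synthesis, had group means of 75.0 ± 5.57 CPM in R-Scm 12 h and 82.4 ± 11.49 CPM in Rcm, a log2FC of -0.14 (SE 0.10), and was not called in any comparison. The liver X receptor gene Nr1h2 was at 36.9 to 50.5 CPM by group mean and was not called, Nr1h3 was under 1 CPM in each group mean, and Mlxipl, which encodes the glucose-responsive factor ChREBP, had 0 counts in every library.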

How the data were processed

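Bulk RNA-seq of MEFs was used. After column purification of the RNA, the authors sequenced paired ends on a NovaSeq instrument and mapped the reads with HISAT2 to GRCm38. The deposited values are raw counts per gene. The counting tool, its use of strand and its treatment of reads with several alignments are not given in the sources used here, which bears on Acaca and Gm5182, Me1 and Gm7049, and Acss2 and Gss.

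From the counts, genes were filtered with filterByExpr (15381 kept), scaled by TMM and fitted with robust quasi-likelihood models in edgeR 4.0.16 (R 4.3.3), with the 6 groups as means and Benjamini-Hochberg adjustment over all genes tested. The steps were tested on simulated data. Alternatives were RLE scaling, no filter or at least 10 counts in every library, DESeq2 1.42.0, fits of the compared groups alone, a replicate block, Acaca summed with Gm5182, and leaving out each library. Copies were sought with blastn 2.17.0 (at least 95% identity over 100 bases of GENCODE M21 transcripts). Promoter sequences and starts are from RefSeq, and 10 of 10 genes matched by symbol.

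The named genes were the 10 members in every comparison, Gm5182, Srebf1, Mlxipl, Nr1h2 and Nr1h3, list genes called in at least 1 of the 5 comparisons with the medium of origin or Scm (at most 3 a list), and, for each member, the 3 genes with the highest Pearson's r, of which 1 gene is not reported here. The members and lists were chosen with earlier results of these data known.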

Additional observations from a re-analysis of the deposited data

Results flagged for a closer look

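In each exchange 1 gene passed the adjusted p of 0.05 in the direct test of 24 h against 12 h. For Fasn after the move from Rcm to Scm, the log2FC at 24 h against 12 h was 0.56 (edgeR adjusted p = 0.0235), just under the fold limit of 0.58, with 3 of 3 libraries at 24 h above those at 12 h. Over 15 alternatives the log2FC ran from 0.49 to 0.65 and the adjusted p from 0.000606 to 0.332. In the opposite exchange 3 of 3 Fasn libraries at 24 h were also above those at 12 h, with a log2FC of 0.46 and an edgeR adjusted p of 0.122 that missed the threshold. For Mid1ip1 after the move from Scm to Rcm, the log2FC at 24 h against 12 h was 1.23 (edgeR adjusted p = 0.0215), with 3 of 3 libraries at 24 h above those at 12 h. Over 15 alternatives the log2FC ran from 1.14 to 1.41 and the adjusted p from 6.21e-11 to 0.141. The reason for either difference was not tested. Groups of 3 libraries were not screened for outlying samples.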

How the results depend on the processing

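Of 1350 refitted values of single genes, 1262 kept their direction and their side of the thresholds, 25 lost a call, 21 gained one and 42 changed sign. The 7 calls in R-Scm 12 h against Rcm held under RLE scaling, both other filters, DESeq2, fits of those groups alone, the replicate block and the sum of Acaca and Gm5182. The sample titles number replicates alike in all groups, whereas the count columns of S-Rcm 24 h, R-Scm 12 h and R-Scm 24 h skip a number. By title, 11 of 45 same-numbered pairs of libraries had deviations from group means that correlated above 0.1. By the same numbers, 8 of 18 libraries correlated best with their own number. The numbers were not taken to pair samples, and a pairing by column number was not tested. The replicate block used the title numbers. The replicate block left each count of called genes as it was (7 in R-Scm 12 h against Rcm) and changed the sign of 1 value, Acss2 in R-Scm 24 h against R-Scm 12 h (-0.013). With an adjusted p under 0.05 alone, 1 gene was called in Rcm against Scm, R-Scm 24 h against Rcm and R-Scm 24 h against R-Scm 12 h, where 0 were called with the fold limit. Among all 15381 genes tested, 442, 73 and 173 passed that adjusted p in the same order, against 354, 58 and 119 with the fold limit. DESeq2 on all libraries called 1 gene in those 3 comparisons and 1 in S-Rcm 24 h against Scm. Among all 29844 genes it called 484, 163, 231 and 136 there, in the same order. With the compared groups alone, edgeR called 1 and DESeq2 1 in Rcm against Scm, and 1 and 2 in S-Rcm 24 h against Scm. Over all genes these fits called 456 and 562, and 90 and 224, in the same order.

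Leaving out 1 library gave 4 to 5 called genes in R-Scm 12 h against Rcm, 0 to 4 in R-Scm 24 h against Rcm, 0 to 2 in R-Scm 24 h against R-Scm 12 h, 0 to 1 in S-Rcm 24 h against S-Rcm 12 h, 1 to 2 in R-Scm 12 h against Scm and 0 to 1 in S-Rcm 24 h against Rcm; these fits have fewer samples. Over all genes these fits called 275 to 420, 14 to 501, 57 to 309, 8 to 16, 353 to 770 and 0 to 38, in the same order. The values that changed sign were uncalled, and several ranged widely on either side of 0. Their log2FC ranges were, in Rcm against Scm, -0.017 to 0.090 for Fasn, -0.046 to 0.32 for Me1 and -0.27 to 0.040 for Gpam. They were -0.082 to 0.30 for Me1 in R-Scm 12 h against Rcm, -0.033 to 0.28 for Gpam in R-Scm 24 h against Rcm and -0.23 to 0.043 for Me1 in S-Rcm 12 h against Scm. In S-Rcm 24 h against Scm they were -0.14 to 0.18 for Acaca and -0.24 to 0.17 for Me1. In R-Scm 24 h against R-Scm 12 h they were -0.37 to 0.25 for Acss2, -0.11 to 0.23 for Me1, -0.25 to 0.044 for Gpam and -0.049 to 0.36 for Tecr. In S-Rcm 24 h against S-Rcm 12 h they were -0.023 to 0.30 for Acaca, -0.18 to 0.28 for Me1, -0.072 to 0.14 for Slc25a1 and -0.18 to 0.11 for Gpam. They were -0.076 to 0.020 for Acss2 in R-Scm 12 h against Scm, and in S-Rcm 24 h against Rcm -0.13 to 0.077 for Acss2, -0.046 to 0.14 for Fasn, -0.44 to 0.088 for Me1 and -0.13 to 0.10 for Slc25a1. The cause was not tested. Over all genes, the 421 calls in R-Scm 12 h against Rcm became 237 with edgeR on those groups alone and 558 with DESeq2 on all libraries, and the 58 calls in R-Scm 24 h against Rcm became 4 and 163, or 501 without R-Scm 24 h replicate 1. With 3 libraries a group, SEs of 0.09 to 0.26 limit what could be called.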

Other observations

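The genes whose log2 CPM followed each lipogenesis gene most closely over the 18 libraries are given by Pearson's r, as a description of libraries that share groups, handling and scaling. Among the genes nearest to Acly were Fdps (0.97) and Nsdhl (0.97). Slc25a1 was closest to Mmab (0.96), Mvk (0.95) and Thra (0.93). Among those nearest to Lpin1 were Lss (0.94) and Insig1 (0.93). Acss2 was nearest to Col6a1 (0.91), Tspan13 (0.91) and Fads2 (0.90), and Fasn to Bcr (0.96), Adgra2 (0.93) and Lrp1 (0.93). Acaca followed Gm5182 (0.97), Notch2 (0.91) and Per3 (0.91). Tecr followed Anp32a (0.85), Cib2 (0.84) and Acat2 (0.83), and Me1 followed Ubp1 (0.87), Fn1 (0.83) and Jcad (0.81). Mid1ip1 and Gpam had no gene above 0.74: the nearest were Gm5801 (0.74), Lsm12 (0.73) and Tpm4 (0.72) for Mid1ip1, and Gm45246 (0.74), Syn1 (0.72) and Cenpt (0.72) for Gpam.

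Thrsp, a paralogue of Mid1ip1 known as a thyroid hormone-responsive lipogenic protein, had 0 to 7 counts per library and was not tested.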
